A study of Mus musculus with 30 samples.

Results

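The ketogenic arrays of this series allow the question of whether the loss of PPARα and the loss of CREB3L3 add up in the liver or whether one loss changes what the other does. For every gene the effect of CREB3L3 ablation in mice without PPARα (PPARα/CREB3L3-/- minus PPARα-/-) was set against its effect in mice with PPARα (CREB3L3-/- minus wild-type, WT), and the difference between both effects is called the interaction. It was computed on 15 of the 30 arrays of the series, those of mice fed a ketogenic diet, and no measured value entered the choice of arrays. Of 35556 probe sets, 21218 carry 1 gene symbol, and these cover 18820 genes. Of those genes, 3989 departed from additive effects at P under 0.001 with a fold beyond 1.2. Values are log2 intensities, so an interaction of 0 means that the log2 level in the combined knockout was the sum of both single effects. A positive interaction means that the level in PPARα/CREB3L3-/- livers lay above that sum, and a negative one that it lay below.

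All livers came from male mice of about 8 weeks on a C57BL/6 background. The groups were 4 WT, 3 PPARα-/-, 4 CREB3L3-/- and 4 PPARα/CREB3L3-/- mice, and every one of them, WT included, ate the ketogenic diet for 4 days and was not fasted before it was killed. The PPARα-/- mice carried the Jackson line's disrupted Ppara allele, the CREB3L3-/- mice a disrupted Creb3l3 allele, and crosses of both lines gave the combined knockout. No driver limited to a tissue is named for either line, so the losses are not limited to hepatocytes, and no chow-fed liver is among the arrays used here. The other 15 arrays hold livers of the same 4 genotypes after a 16 h fast. Their levels are set against those on the diet only where both regimens are compared. They were part of the same fit, however, so they share in the estimate of spread behind every SE and P. They also entered the mean by which a probe set was chosen for each gene. With the ketogenic arrays alone in the fit, 4486 probe sets were called for the interaction in place of 5669. In whole liver, fewer cells of a type and less RNA per cell cannot be told apart.

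PPARα is a nuclear receptor that is switched on by fatty acids and drives the genes of fatty acid oxidation and ketone body formation. In rodents, its strong activation is also known to make the liver grow and hepatocytes divide. CREB3L3, also called CREBH, is a transcription factor held in the membrane of the endoplasmic reticulum and released by cleavage, and it is known for its control of apolipoprotein genes and of Fgf21. A ketogenic diet is rich in fat and almost free of carbohydrate, so it confronts the liver with a heavy load of fatty acids.

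The levels of the targeted genes were examined first. Creb3l3 read 10.46, 10.48, 10.42 and 10.45 in the 4 WT livers and 9.95, 9.77 and 9.49 in the 3 PPARα-/- livers. It read 4.43, 4.30, 4.29 and 4.44 in CREB3L3-/- livers and 5.16, 4.57, 4.90 and 4.97 in PPARα/CREB3L3-/- livers, so both groups without CREB3L3 lay far below both groups with it. The fitted interaction of Creb3l3 was 1.25 (SE 0.20, adjusted p = 2.9e-05), but the CREB3L3-/- values lie near the array medians (4.22 to 4.38), where a drop may not be measured in full, so this value does not show whether the effects add. Ppara read 10.37 to 10.54 in WT livers, 7.22 to 7.95 after loss of PPARα, 8.01 to 8.99 after loss of CREB3L3 and 6.62 to 7.62 after loss of both. Its interaction was 1.48 (SE 0.39, adjusted p = 0.00522), and the call was lost under 11 of the alternative settings. The allele disrupts part of Ppara, and the position of the probes against that part was not examined, so its level does not check the genotype.

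Arrays of one group correlated with each other at 0.978 to 0.990. In a principal component analysis, the first component held 52.8% of the variance and set the 4 CREB3L3-/- livers apart from all others. CREB3L3-/- replicate 1 scored 43.7 on it and the other CREB3L3-/- livers 66.8 to 84.6, whereas the livers of the remaining 3 genotypes scored between -35.4 and -17.8. PPARα/CREB3L3-/- replicate 3 had the lowest correlation with its group. Over all probe sets, those without a symbol included, 5669 were called for the interaction. Without these 2 arrays there were 5823.

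Of the 3989 genes, 1544 had a positive interaction, which is 8.20% of all genes tested, and 2445 had a negative one, which is 13.0%. The departures were often large: 2268 were beyond 2-fold (891 positive and 1377 negative) and 76 beyond 16-fold (37 positive and 39 negative). When each array was left out in turn, 3133 of the genes kept their call and sign in every fit. The signs did not hinge on the log2 scale either, since all 3989 genes departed in the same direction when group means of linear intensities were used. Many negative calls concerned genes that were dim in most groups: 286 negative and 47 positive genes had 3 or 4 group means below every array median, which ran from 4.22 to 4.38. Fold changes of such genes are compressed by background, and 70 called genes had all 4 means below the medians.

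The CREB3L3 effects behind the interaction differed widely in extent. With PPARα present, CREB3L3 ablation raised 3152 genes (16.7% of those tested) and lowered 2246 (11.9%). Without PPARα it raised 202 (1.07%) and lowered 445 (2.36%). The count without PPARα depended on single arrays. In probe sets it fell from 859 to 389 without PPARα-/- replicate 2 and to 527 without PPARα/CREB3L3-/- replicate 3. Across genes, the effect with PPARα had an SD of 0.763 log2 units and that without PPARα 0.271, and they correlated at -0.03, with genes not being independent of each other. Of the genes called for the interaction, 3668 had the larger CREB3L3 effect, in absolute size, with PPARα present. The most frequent pattern among the negative genes was a rise with PPARα and no called effect without it, which held for 2049 of 2445. Another 112 rose with PPARα and fell without it, and 107 fell only without it. Among the positive genes, 1334 of 1544 fell with PPARα and were not called without it, 54 fell with it and rose without it, and 46 rose only without it. The plot of both CREB3L3 effects shows these genes spread along the axis of the effect with PPARα.

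**Figure D1:**
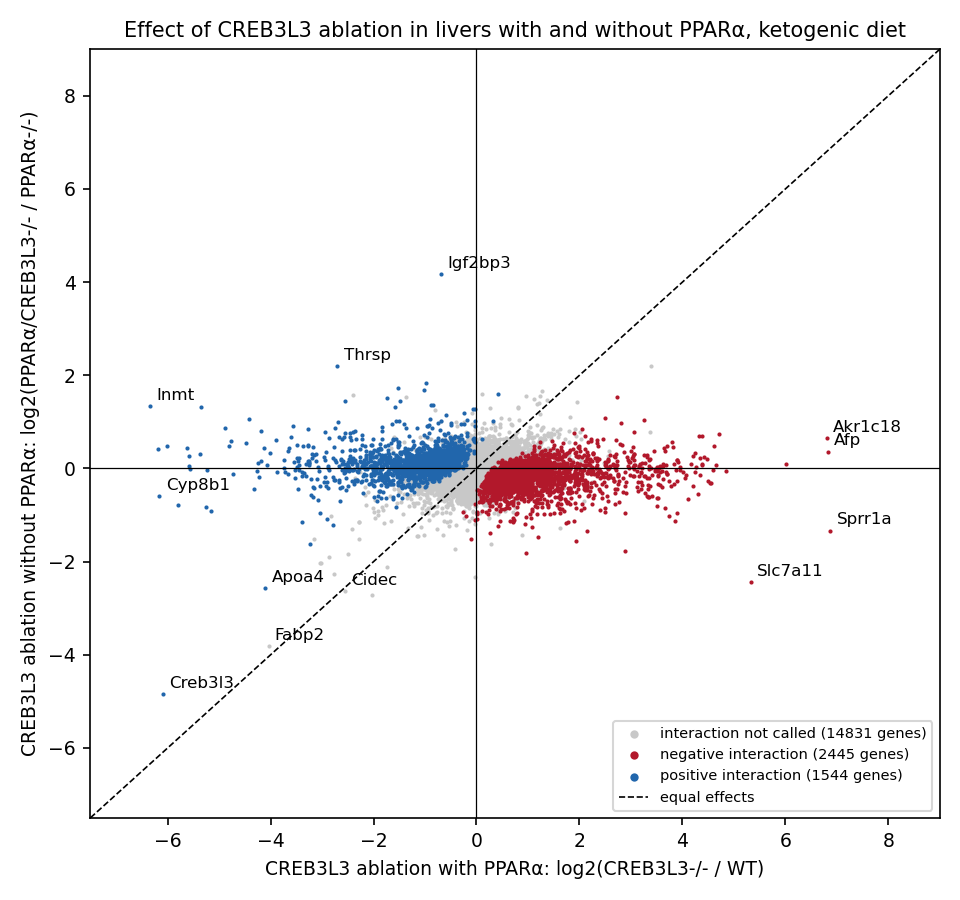
Each point is a gene, with the effect of CREB3L3 ablation in mice with PPARα (CREB3L3-/- minus WT) on the x axis and in mice without PPARα (PPARα/CREB3L3-/- minus PPARα-/-) on the y axis, both as log2 differences, and colour marks the genes called for a positive or negative interaction. The cloud is wide along x (SD 0.763) and narrow along y (SD 0.271), and points off the diagonal depart from additive effects.

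The same contrast can be read as the effect of PPARα ablation with and without CREB3L3. With CREB3L3 present, PPARα ablation raised 1213 genes (6.45%) and lowered 1345 (7.15%). Without CREB3L3 it raised 2001 (10.6%) and lowered 3240 (17.2%), and 2893 of the 3989 interaction genes had the larger PPARα effect there. Among the negative genes, 1618 fell with PPARα ablation only when CREB3L3 was missing, 392 rose only when it was present, and 206 rose when it was present and fell when it was missing. Among the positive genes, 801 rose only without CREB3L3, 328 fell only with it, and 270 fell with it and rose without it.

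Where both single knockouts moved a gene the same way, the combined knockout seldom went the sum of the way. Of 790 genes that both single knockouts lowered, 605 had a positive interaction, and of 696 that both raised, 571 had a negative one. Over all genes the shares were 8.20% positive and 13.0% negative. These genes were chosen by effects measured on livers that also enter the interaction, and such a choice favours these signs. The counts therefore describe the calls and are not a test. An array has a floor and a ceiling, which limits how far a sum can be followed. For 163 of the 1544 positive genes the additive level lay below the lowest array median, for 5 of them below the lowest value on any array (0.698), and for 1 negative gene it lay above the highest value (13.7). Genes on which CREB3L3 ablation had the same called direction with and without PPARα were few: 80 fell and 43 rose in both settings, and 100 of these were not called for the interaction.

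Genes were also sorted by which genotype had all its livers above or below all livers of the other genotypes. The CREB3L3-/- livers stood above for 2124 genes (11.3%) and below for 1282 (6.81%). The WT livers stood above for 1074 (5.71%) and below for 886 (4.71%). The PPARα/CREB3L3-/- livers stood above for 275 (1.46%) and below for 405 (2.15%), and the PPARα-/- livers above for 205 (1.09%) and below for 120 (0.638%). Among the negative interaction genes, CREB3L3-/- livers stood above the rest for 1571 and WT livers below the rest for 501. Among the positive ones, CREB3L3-/- livers stood below for 873 and WT livers above for 672. Departures that put the combined knockout alone at an extreme were rarer, with 93 positive genes above and 169 negative genes below. The sorting used the same livers as the call. A high CREB3L3-/- level or a low WT level by itself makes the interaction negative, so the match in direction is built in.

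**Figure D2:**
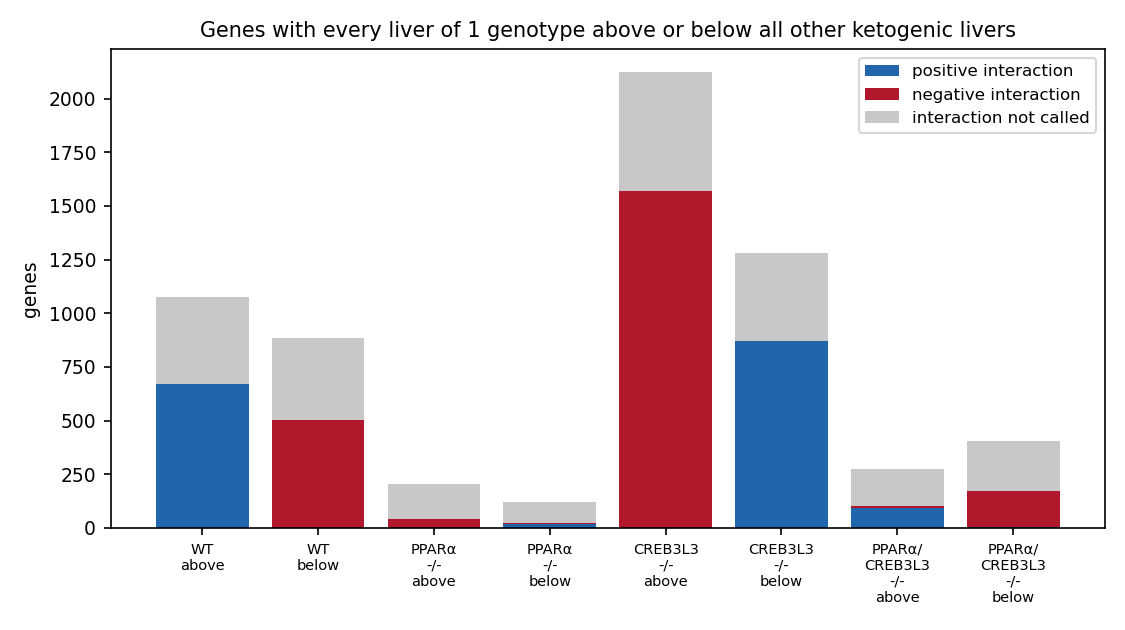
Bars count the genes for which every liver of a genotype on the ketogenic diet lay above (or below) every liver of the other genotypes, stacked by the call for the interaction. The CREB3L3-/- bars are the longest (2124 above, 1282 below) and consist mostly of called genes (1571 negative above, 873 positive below). The sorting and the call used the same livers, so the overlap is a description and not a test.

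The most uniform group was that of mitosis and chromosome segregation. Of its 79 measured members, 75 had a negative interaction, none a positive one, and the median interaction was -3.40, against 0.04 over all genes. The same count, 75, had all CREB3L3-/- livers above every other liver. With PPARα, CREB3L3 ablation raised 76 of them (median effect 3.39). Without PPARα it raised none, and the median effect was -0.02. The members are the working parts of cell division, the spindle motors, checkpoint kinases and cohesion factors, and many promoters of such genes are known to carry a CCAAT box next to a cell cycle homology region (CHR). The promoters of the 4 members with the lowest P are shown for this reason, from 250 bases before to 50 after the RefSeq start on GRCm38.p6, 5′ to 3′ on the strand of the gene. Capitals mark CCAAT (or ATTGG, its reverse) and the CHR, searched as TTTGAA or TTTAAA on both strands. They lie at chr7:80294201-80294500 (Prc1, plus strand), chrX:100625815-100626114 (Kif4, plus), chr9:83834439-83834738 (Ttk, plus) and chr3:159495183-159495482 (Depdc1a, plus). Prc1 has a second start 25 bases downstream whose window overlaps this one.
Prc1: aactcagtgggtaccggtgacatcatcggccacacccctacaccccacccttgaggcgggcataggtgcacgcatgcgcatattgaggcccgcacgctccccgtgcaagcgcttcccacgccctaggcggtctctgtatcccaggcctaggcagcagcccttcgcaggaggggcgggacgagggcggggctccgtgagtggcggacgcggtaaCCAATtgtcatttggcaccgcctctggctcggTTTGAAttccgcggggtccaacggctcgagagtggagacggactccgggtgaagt
Kif4: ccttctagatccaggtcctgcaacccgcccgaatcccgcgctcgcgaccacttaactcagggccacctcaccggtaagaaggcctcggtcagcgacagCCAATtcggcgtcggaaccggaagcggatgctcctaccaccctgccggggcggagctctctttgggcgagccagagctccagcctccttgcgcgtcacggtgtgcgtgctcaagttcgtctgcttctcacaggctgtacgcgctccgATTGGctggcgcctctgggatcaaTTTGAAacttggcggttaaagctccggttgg
Ttk: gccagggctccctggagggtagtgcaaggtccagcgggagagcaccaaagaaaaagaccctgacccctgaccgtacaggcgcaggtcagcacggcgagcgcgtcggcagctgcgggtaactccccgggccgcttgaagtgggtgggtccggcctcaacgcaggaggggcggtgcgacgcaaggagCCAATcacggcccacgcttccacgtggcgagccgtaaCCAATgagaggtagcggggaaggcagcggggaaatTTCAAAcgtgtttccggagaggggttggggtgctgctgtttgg
Depdc1a: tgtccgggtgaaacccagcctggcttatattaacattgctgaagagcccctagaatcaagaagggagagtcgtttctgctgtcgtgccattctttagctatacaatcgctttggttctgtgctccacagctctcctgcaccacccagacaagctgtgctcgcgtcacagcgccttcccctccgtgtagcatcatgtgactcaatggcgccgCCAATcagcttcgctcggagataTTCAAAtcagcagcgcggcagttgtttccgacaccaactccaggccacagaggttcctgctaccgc

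Of the 67 mitosis genes with a promoter in the table, 50 (74.6%) held the CHR letters in this window, and 38 (56.7%) held both CHR and CCAAT. Among the 14749 genes of the array with a promoter, 27.0% held the CHR and 12.2% both. Among 60 promoters of DNA replication genes, 30% held the CHR and 68.3% the CCAAT box, against 41.9% of the promoters of array genes. The letters were no more frequent over all negative genes (CHR in 24.0%) than over positive ones (25.6%). Such a match describes the letters in the window and not a bound site.

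Kif4, a motor that compacts chromosomes and builds the central spindle, read 2.57, 2.43, 2.66 and 2.25 in WT livers and 2.31, 2.08 and 1.92 in PPARα-/- livers. In CREB3L3-/- livers it read 5.90, 7.31, 7.11 and 7.13, and in PPARα/CREB3L3-/- livers 2.07, 2.14, 2.09 and 2.39. Every CREB3L3-/- liver lay well above every other liver, and the remaining groups lay together below the array medians. The interaction was -4.31 (SE 0.28, adjusted p = 6.9e-11). The other genes of this group repeated the picture. Prc1, which bundles the microtubules of the midzone, rose from 2.59 to 4.00 in WT to 7.17 to 8.18 in CREB3L3-/- livers, and the combined knockout stayed at 2.41 to 2.81 (interaction -4.76, SE 0.32, adjusted p = 8.3e-11). Hmmr, a spindle assembly factor, had -4.89 (SE 0.36), Ttk, the kinase of the spindle checkpoint, -3.90 (SE 0.26) and Depdc1a -3.29 (SE 0.22). Only Spc24, Pimreg, Sapcd2 and Pttg1 were not called. CREB3L3-/- replicate 1, the array closest to the other genotypes, had the lowest value of its group for Kif4, Prc1, Hmmr, Ttk and Depdc1a.

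DNA replication and G1/S genes followed with 63 negative interactions among 73 members, none positive, and a median of -1.89. All CREB3L3-/- livers stood above the rest for 66 of them. Rrm2, the regulated subunit of ribonucleotide reductase, read 5.46 to 6.34 in WT, 5.95 to 6.62 without PPARα, 9.36 to 10.18 without CREB3L3 and 6.58 to 6.71 without either (interaction -3.37, SE 0.28, adjusted p = 2.4e-09). Fancd2, a DNA repair protein of replication forks, read 5.44 to 6.32 in CREB3L3-/- livers and 2.12 to 2.83 in all others (interaction -3.55, SE 0.24). Dnmt1, the maintenance DNA methyltransferase, had an interaction of -2.08 (SE 0.19). Among 31 genes of the p53 response, 14 were negative and 3 positive (median -1.0). The negative ones with the lowest P, Ckap2 (-4.16, SE 0.41) and Gtse1 (-3.50, SE 0.40), act in mitosis, whereas Tnfrsf10b, a death receptor (-3.75, SE 0.39), and Eda2r (-2.92, SE 0.35) do not.

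Apart from the cell cycle, the largest negative departures concerned genes that were dim in WT livers. Akr1c18, a steroid reductase, read 2.46 to 3.63 in WT livers, 2.50 to 2.56 after loss of PPARα, 8.82 to 10.26 after loss of CREB3L3 and 2.51 to 4.08 after loss of both. Its interaction was -6.15 (SE 0.44, adjusted p = 2.0e-10). Cdh17, a cadherin of the intestinal lining, read 7.81 to 9.62 in CREB3L3-/- livers and 2.71 to 3.55 in all others (interaction -5.91, SE 0.33). Afp, the albumin-like protein of the fetal liver, read 3.86, 3.70, 3.70 and 3.72 in WT and 5.38, 5.96 and 5.22 in PPARα-/- livers. It reached 9.20, 10.96, 11.22 and 10.91 in CREB3L3-/- livers, and 5.44, 6.93, 4.79 and 6.37 in PPARα/CREB3L3-/- livers. Both single losses raised Afp, with the sum at 12.35, yet the combined knockout averaged 5.88, so the interaction was -6.47 (SE 0.51, adjusted p = 9.0e-10). Of 33 fetal and regeneration genes, 20 were negative and 2 positive, with a median of -1.97.

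The largest negative interaction among genes that kept their call in every fit was that of Sprr1a, an envelope protein of stressed epithelia. It read 9.0, 4.96, 4.66 and 3.84 in WT, 6.80, 9.41 and 7.20 without PPARα, 12.08 to 12.76 without CREB3L3 and 5.90, 8.27, 6.06 and 5.65 without either. Values outside the CREB3L3-/- group scattered widely, with WT replicate 1 well above its group, and the interaction of -8.21 had the SE of 1.07 that goes with it (adjusted p = 1.3e-06). Anxa2, a membrane-binding protein (interaction -5.00, SE 0.63), and Lgals3, a lectin of macrophages and injured epithelia (-4.13, SE 0.61), were likewise highest within WT in replicate 1, at 8.50 and 9.43.

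Not every fetal gene followed the CREB3L3-/- livers. Igf2bp3, a fetal RNA-binding protein, read 4.43 to 5.03 in WT, 3.83 to 4.50 in PPARα-/- and 3.38 to 4.37 in CREB3L3-/- livers. In the 4 PPARα/CREB3L3-/- livers it read 8.08, 8.01, 8.22 and 8.61, far above all others. Neither single loss was called, and the interaction was 4.85 (SE 0.31, adjusted p = 6.1e-11). The other genes for which the combined knockout alone was highest were chosen after their values were seen. Gm3893 had an interaction of 4.12 (SE 0.34), Cyp2c39 of 3.24 (SE 0.49) and Prodh, the first enzyme of proline breakdown, of 2.73 (SE 0.31). Gnmt, which disposes of excess methyl groups, read 11.84 to 11.98 in the combined knockout, 11.07 to 11.70 in WT and PPARα-/- livers and 6.39 to 9.02 in CREB3L3-/- livers. There the interaction of 4.02 (SE 0.46) came mainly from the low CREB3L3-/- values.

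At the other end, Fbp2, the muscle form of fructose bisphosphatase, was lowest in the combined knockout at 2.64 to 2.99, against 3.18 to 4.25 in WT and PPARα-/- livers and 6.06 to 7.79 in CREB3L3-/- livers (interaction -3.95, SE 0.43). E2f1, a transcription factor of S phase entry, had an interaction of -2.29 (SE 0.24) with the combined knockout lowest as well. Both were picked after their values were seen.

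Called genes of the integrated stress response and called NRF2 antioxidant genes mostly departed in the negative direction too. Slc7a11, a member of both lists, had a profile unlike that of the mitosis genes. Slc7a11 imports cystine for glutathione synthesis and is a classic target of both ATF4, through the amino acid response element (AARE), and NRF2. Its promoter (chr3:50443564-50443863, minus strand, GRCm38.p6, RefSeq) is shown because it holds the AARE core TGATGNAA in both orientations, marked in capitals, at bases -66 to -59 and -47 to -40 from the start.
Slc7a11: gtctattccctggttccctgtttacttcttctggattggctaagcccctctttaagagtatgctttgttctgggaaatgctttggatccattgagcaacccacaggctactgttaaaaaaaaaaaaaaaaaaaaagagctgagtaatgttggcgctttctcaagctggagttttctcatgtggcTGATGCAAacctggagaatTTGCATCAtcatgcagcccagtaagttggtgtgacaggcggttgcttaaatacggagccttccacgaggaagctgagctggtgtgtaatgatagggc

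Slc7a11 read 4.79, 3.22, 2.64 and 2.61 in WT livers, 6.84, 7.67 and 6.95 after loss of PPARα, 8.67, 8.49, 8.69 and 8.70 after loss of CREB3L3 and 5.39, 6.35, 3.38 and 3.70 after loss of both. Each single loss raised it, PPARα ablation by 3.84 (SE 0.52) and CREB3L3 ablation by 5.32 (SE 0.48). In mice without PPARα, however, CREB3L3 ablation shifted it by -2.44 (SE 0.52, called), so that the combined knockout lay between WT and either single knockout. The additive level of 12.48 compares with a mean of 4.71, and the interaction was -7.77 (SE 0.70, adjusted p = 6.5e-09).

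Of 31 genes of the integrated stress response, 14 had a negative interaction and none a positive one (median -1.11). PPARα ablation alone raised 16 of them. CREB3L3 ablation without PPARα lowered only 2, Slc7a11 included. The AARE core was found in 10 of 26 promoters (38.5%), against 3.63% of the promoters of array genes. Phgdh, the first enzyme of serine synthesis, read 4.13 to 4.82 in WT, 4.75 to 5.08 without PPARα, 7.04 to 8.24 without CREB3L3 and 4.32 to 4.84 without either (interaction -3.69, SE 0.30). The transfer RNA synthetases Wars (-1.44, SE 0.17) and Gars (-1.63, SE 0.23) departed less. Atf4 itself was not called (-0.26), nor were Asns (-2.36), Atf3 (-2.90) and Trib3 (-0.88). Among 36 NRF2 antioxidant genes 15 were negative and 2 positive (median -0.78). They included the exporter Abcc4 (-4.76, SE 0.36), the carbonyl reductase Cbr3 (-4.66, SE 0.43) and Pgd of the pentose phosphate pathway (-2.88, SE 0.23). The NRF2 core TGACNNNGC was present in 11 of 31 of their promoters (35.5%), against 15.4% of array promoters. Of 15 heat shock genes, 4 were negative (26.7%, against 13.0% of all genes), and Hspb1 had the widest departure of these (-2.77, SE 0.51). Of 39 chaperones of the endoplasmic reticulum, where CREB3L3 resides, 6 were negative (15.4%, near the 13.0% of all genes), 2 positive and 31 not called (median -0.19).

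Cytosolic ribosomal proteins departed by little but almost in unison. Of 54 members, 45 were negative and none positive (median -0.52), and for 53 of them the WT livers lay below every other liver. CREB3L3 ablation with PPARα raised 52 and PPARα ablation with CREB3L3 raised 53. Rpl35 read 10.52, 10.33, 10.24 and 10.26 in WT livers, 11.38 to 11.44 after loss of PPARα, 11.19 to 11.37 after loss of CREB3L3 and 11.47 to 11.55 after loss of both. A single loss thus brought nearly the whole rise and the combined loss added little to it, which put the level at 11.49 where the sum would be 12.31 (interaction -0.82, SE 0.09, adjusted p = 2.1e-07). These intensities are high, and how far they were compressed near the top of the scale was not tested. Among 39 ribosome biogenesis genes 27 were negative (median -0.77), led by Nhp2 (-1.46, SE 0.17) and Nop56 (-1.88, SE 0.24). Myc, a driver of ribosome production, read 5.58 to 8.01 in WT, 9.74 to 10.27 without PPARα, 9.25 to 9.42 without CREB3L3 and 8.99 to 9.61 without either (interaction -2.90, SE 0.69, adjusted p = 0.00222). That call was lost without PPARα-/- replicate 3.

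Many positive departures concerned hepatocyte genes that were low in CREB3L3-/- livers and higher when PPARα was missing as well, though not always at the WT level. Among cytochromes P450 of families 1 to 3, which handle drugs, steroids and bile acids, 24 of 37 were positive and none negative (median 2.33). CREB3L3-/- livers lay below all others for 17 of the 37, and WT livers above all others for 11. Cyp2c29 read 11.70, 11.77, 12.03 and 12.29 in WT and 10.99, 11.28 and 11.71 in PPARα-/- livers. It read 8.91, 5.70, 5.84 and 5.85 in CREB3L3-/- livers, and 11.73, 11.99, 11 and 11.82 in PPARα/CREB3L3-/- livers. The 3 other groups overlapped, and only the CREB3L3-/- livers were low, with replicate 1 the least so (interaction 5.68, SE 0.61, adjusted p = 8.1e-08). Genes of the Cyp2c cluster are close copies, so that probes may be shared between Cyp2c29, Cyp2c37 (5.56, SE 0.57), Cyp2c38 (5.85, SE 0.97) and Cyp2c54 (5.75, SE 0.67). Cyp2f2, which is not of that cluster, had 3.36 (SE 0.26).

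In bile acid synthesis and transport, 20 of 30 genes were positive and 2 negative (median 1.70). CREB3L3-/- livers lay below all others for 13 of the 30, and WT livers above all others for 14. Slc10a1, the carrier that takes bile acids up from the blood, read 12.45 to 12.61 in WT livers, 11.79 to 11.99 after loss of PPARα, 10.09, 8.49, 7.95 and 8.92 after loss of CREB3L3 and 12.09 to 12.48 after loss of both. The combined knockout overlapped with WT (interaction 4.09, SE 0.34, adjusted p = 1.8e-09). Cyp8b1, which makes cholic acid, read 9.72 to 10.80 in WT, 8.44, 7.19 and 5.82 without PPARα, 3.04 to 4.59 without CREB3L3 and 6.12 to 7.02 without either. It was lowered by either loss, and the additive level of 0.99 lies below the array medians, while the combined knockout averaged 6.55 (interaction 5.56, SE 0.56). Baat, which conjugates bile acids (2.63, SE 0.22), and Slc27a5, their CoA ligase (3.64, SE 0.33), departed the same way. The negative genes were the exporter Abcc4, named above, and Fgfr4 (-1.21), the receptor for the gut signal that restrains bile acid synthesis.

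Amino acid breakdown was among the broadest positive groups, with 46 of 51 genes positive and 1 negative (median 1.61), and the CREB3L3-/- livers lay below all others for 42 of them. Fah, the last enzyme of tyrosine breakdown, read 11.64 to 11.81 in WT livers, 11.20 to 11.28 after loss of PPARα, 9.69 to 10.23 after loss of CREB3L3 and 11.23 to 11.43 after loss of both (interaction 1.88, SE 0.12, adjusted p = 6.1e-11). Agxt, which detoxifies glyoxylate, read 9.79 to 10.35, 9.07 to 9.20, 5.96 to 7.29 and 9.11 to 9.63 in the same order (interaction 3.69, SE 0.28). Hibadh and Acad8, both of valine breakdown, had 1.48 (SE 0.11) and 1.64 (SE 0.13). The probe sets of Hibadh disagreed, with dimmer ones at 0.93 and -1.78. In the urea cycle and ammonia handling 9 of 12 were positive (median 1.45). Otc, which joins ornithine and carbamoyl phosphate, read 11.67 to 11.92 in WT, 10.35 to 10.48 without PPARα, 7.72 to 9.31 without CREB3L3 and 9.67 to 10.83 without either (interaction 3.37, SE 0.32).

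Plasma proteins made by hepatocytes were positive too, though for many of them the WT livers stood apart. Of 34 coagulation and complement genes, 31 were positive and none negative (median 1.51), among them F7 (2.07, SE 0.20), F10 (2.09, SE 0.24) and F13b (2.97, SE 0.35). For 23 of the 34 the WT livers were highest, and for 13 the CREB3L3-/- livers were lowest. Fgg, the gamma chain of fibrinogen, had its lowest values in PPARα-/- livers instead, at 11.72 to 11.82, against 12.61 to 12.77 in WT, 11.84 to 12.24 without CREB3L3 and 12.25 to 12.82 without either (interaction 1.38, SE 0.12, adjusted p = 5.4e-09). Of 32 acute phase genes 13 were positive and none negative (median 0.75). Among 38 transcription factors and nuclear receptors of hepatocytes, 11 were positive and 2 negative, with Rxra, the partner of PPARα, at 1.32 (SE 0.12) and the bile acid receptor Nr1h4 at 1.17 (SE 0.16). Creb3l1 (-1.12) and Creb3l2 (-1.45), relatives of CREB3L3, were the negative ones. Hnf4a was not called (0.20). Clock genes had 7 positive and 1 negative among 16, for example Nr1d2 (1.53, SE 0.21) and Per3 (2.34, SE 0.37).

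The genes with the largest positive departures showed 2 kinds of profile. Inmt, an amine methyltransferase, read 10.48, 10.48, 11.03 and 10.63 in WT livers, 6.03, 5.44 and 5.53 after loss of PPARα, 6.14, 4.16, 3.60 and 3.36 after loss of CREB3L3 and 6.80, 6.80, 7.19 and 7.20 after loss of both. Both single losses lowered it strongly, the sum of -0.68 is below any value an array gave, and the interaction of 7.68 (SE 0.67, adjusted p = 3.7e-09) is measured against a level that an array cannot show. WT livers were highest also for Sult2a8, a sulfotransferase (6.50, SE 0.72), Serpina6, the carrier of glucocorticoids in plasma (6.60, SE 1.02), and Car3, an abundant carbonic anhydrase (5.63, SE 0.78). Car3 read 12.57 to 13.14 in WT and 5.76 to 9.63 over the 3 knockout groups. The additive levels, 0.84 for Sult2a8, 2.05 for Serpina6 and 1.34 for Car3, also lie below the array medians. Rgs16, a brake on G protein signals, instead read 9.52 to 11.48 in WT, 8.78 to 10.02 in PPARα-/- and 10.27 to 10.94 in PPARα/CREB3L3-/- livers, and 6.59, 5.32, 4.96 and 5.07 in CREB3L3-/- livers alone (interaction 6.68, SE 0.76).

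Fatty acid oxidation genes, the core of PPARα function, were also positive. Here, as for many coagulation and complement genes, the WT livers mostly stood alone. Of 28 mitochondrial members, 22 were positive and none negative (median 1.2). WT livers lay above all others for 23. CREB3L3 ablation with PPARα lowered 25 and PPARα ablation with CREB3L3 lowered 24, with median effects of -1.19 and -1.18, whereas the median effect of either loss on top of the other was -0.02. Acads, the dehydrogenase for short acyl chains, read 9.64 to 9.74 in WT, 8.03 to 8.36 without PPARα, 8.29 to 8.60 without CREB3L3 and 8.17 to 8.55 without either. The 3 knockout groups overlapped, and the interaction was 1.37 (SE 0.13, adjusted p = 2.0e-08). Etfa (1.49, SE 0.11), Echs1 (1.29, SE 0.11), Acadm (1.27, SE 0.14) and Cpt1a (1.0, SE 0.12) departed similarly. Acot2 (-1.29), Hsdl2, Acad9, Crat, Slc22a5 and Acad12 were not called. Of 45 peroxisomal members 27 were positive and 2 negative (median 0.94), including Pxmp2 (2.37, SE 0.19) and Decr2 (1.91, SE 0.16). In complex I of the respiratory chain 20 of 34 were positive (median 0.55), and in the TCA cycle 14 of 23, with 1 negative. In complex I the CREB3L3-/- livers lay below all others for 25 genes and WT livers above for 3, and in the TCA cycle these counts were 11 and 9. Suclg1 read 9.97 to 10.19 in WT livers, 9.01 to 9.21 after loss of PPARα, 8.68 to 8.81 after loss of CREB3L3 and 9.16 to 9.49 after loss of both (interaction 1.46, SE 0.13).

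Several of the best known PPARα targets were not called for the interaction. Fabp1, the fatty acid binding protein of liver, read 12.70 to 12.78 in WT, 8.94, 7.98 and 6.46 without PPARα, 11.31 to 12.24 without CREB3L3 and 6.18 to 7.60 without either. PPARα ablation lowered it by 4.94 (SE 0.41) with CREB3L3 and by 4.84 (SE 0.38) without it, and the interaction was 0.10 (SE 0.55, adjusted p = 0.927). Ehhadh, the bifunctional enzyme of peroxisomes, had 0.53 (SE 0.22, adjusted p = 0.0793), Cyp4a14 2.28 (SE 0.69, adjusted p = 0.0148) and the droplet proteins Cidec -0.08 (SE 0.60) and Plin5 0.65 (SE 0.43). Cyp4a14 passed in 3 settings and Ehhadh in 1, and the sign for Fabp1 turned (to -0.57) without PPARα-/- replicate 3. The SEs of Fabp1, Cyp4a14 and Cidec are wide enough to leave sizeable departures undetected. Vnn1, a pantetheinase, read 10.67 to 11.11 in WT livers, 3.70 to 4.12 after loss of PPARα, 8.96 to 9.12 after loss of CREB3L3 and 3.79 to 4.33 after loss of both. Its interaction of 1.93 (SE 0.49, adjusted p = 0.00393) lost the call in 10 settings. The additive level of Vnn1, 2.12, lies below the array medians, where a drop may not be measured in full. Retsat, a retinol saturase, had the same order of groups (1.99, SE 0.32, adjusted p = 2.4e-05). Of 34 vanins and less studied PPARα-dependent genes 16 were positive and 2 negative (median 1.17).

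Genes known for their control by CREB3L3 gave mixed results. Apoa4, an apolipoprotein of lipid export, read 13.13 to 13.36 in WT, 13.03 to 13.18 without PPARα, 8.71 to 9.69 without CREB3L3 and 10.35 to 10.67 without either. CREB3L3 ablation lowered it in both settings, by less without PPARα (interaction 1.53, SE 0.29, adjusted p = 2.3e-04). A dimmer probe set of Apoa4 was not called (0.94, SE 0.48). Fabp2, the intestinal fatty acid binding protein, was not called, at 10.54 to 11.07 in WT livers, 7.65 to 9.05 after loss of PPARα, 6.65 to 7.11 after loss of CREB3L3 and 4.08 to 5.27 after loss of both (interaction 0.22, SE 0.34, adjusted p = 0.702). Fgf21, a fasting hormone of the liver, read 8.74, 8.24, 6.91 and 6.16 in WT, 4.14, 5.59 and 4.30 without PPARα, 6.17, 5.05, 4.37 and 6.38 without CREB3L3 and 3.60 to 4.22 without either. Its interaction was 1.17 (SE 0.66, adjusted p = 0.225), and its WT values alone spanned more than that. Mfsd2a, a lipid transporter, had -0.68 (SE 0.64). Among 28 lipoprotein genes 18 were positive and 1 negative (median 1.0), with Apob at 1.0 (SE 0.09) and Apoa5 at 1.54 (SE 0.18). Apoa1 (0.33, SE 0.11) and Apoc2 (-0.74, SE 0.22) were not called, although Apoa1 passed under 3 and Apoc2 under 4 of the alternatives.

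Other lipid and carbohydrate pathways split. Among 18 fatty acid synthesis genes 5 were positive (27.8%, against 8.20% of all genes) and 1 negative (5.56%, against 13.0%). Thrsp, a lipogenic nuclear protein, read 9.19 to 11.47 in WT livers, 7.86 to 8.27 after loss of PPARα, 6.75 to 9.09 after loss of CREB3L3 and 10.02 to 10.40 after loss of both. CREB3L3 ablation lowered it with PPARα and raised it by 2.20 (SE 0.45) without it (interaction 4.90, SE 0.62, adjusted p = 8.6e-07). In the elongation and desaturation of polyunsaturated fatty acids 4 of 14 were positive (28.6%) and 3 negative (21.4%). Elovl2 read 12.27 to 12.56 in WT, 10.67 to 11.25 without PPARα, 9.03 to 9.91 without CREB3L3 and 9.43 to 10.23 without either (interaction 1.82, SE 0.24), Elovl3 had 4.42 (SE 0.75), and Fads3, a relative of the desaturases, had -4.86 (SE 0.32). The additive level of Elovl3, 1.18, lies below the array medians. Fads1 (0.71, SE 0.22) and Fads2 (0.66, SE 0.38) were not called, although Fads1 passed in 3 settings.

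Glucose genes were divided as well, with 10 positive and 13 negative of 33. The positive ones included Pcx, the entry enzyme of gluconeogenesis (2.08, SE 0.20), and the glycogen enzymes Gys2 (3.50, SE 0.37) and Pygl (1.55, SE 0.14). The negative ones included the glucose carrier Slc2a1 (-2.77, SE 0.26). Pck1 read 12.37 to 12.74 in WT livers, 12.25 to 12.32 after loss of PPARα, 11.51, 8.36, 10.60 and 11.05 after loss of CREB3L3 and 11.59 to 11.94 after loss of both, and it was not called (1.60, SE 0.51, adjusted p = 0.0214) but passed in 3 settings, among them the one without CREB3L3-/- replicate 2, the liver at 8.36. In ketone body metabolism, 1 gene of 8 was positive (Acat1, 1.37, SE 0.12; 12.5%) and 2 were negative (25%), a list too short to set against the shares of all genes. Oxct1, which burns ketone bodies and is normally low in hepatocytes, read 6.37 to 7.72 in CREB3L3-/- livers and 3.48 to 4.86 in all others (interaction -2.76, SE 0.32, adjusted p = 2.2e-07). Of 22 cholesterol synthesis genes 2 were positive (9.09%) and 3 negative (13.6%), near the 8.20% and 13.0% of all genes (median -0.91). The count of called members ranged from 2 to 8 under other settings. Sex-biased genes were positive in 11 of 23 cases (median 1.75), with Cyp2d9 at 2.65 (SE 0.39). Igfbp2, which binds insulin-like growth factors, read 11.61 to 12.42 in WT, 9.80 to 10.43 without PPARα, 7.25 to 9.50 without CREB3L3 and 9.68 to 10.20 without either (interaction 4.05, SE 0.45). It was among 8 positive of 27 hormone genes.

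**Figure D3:**
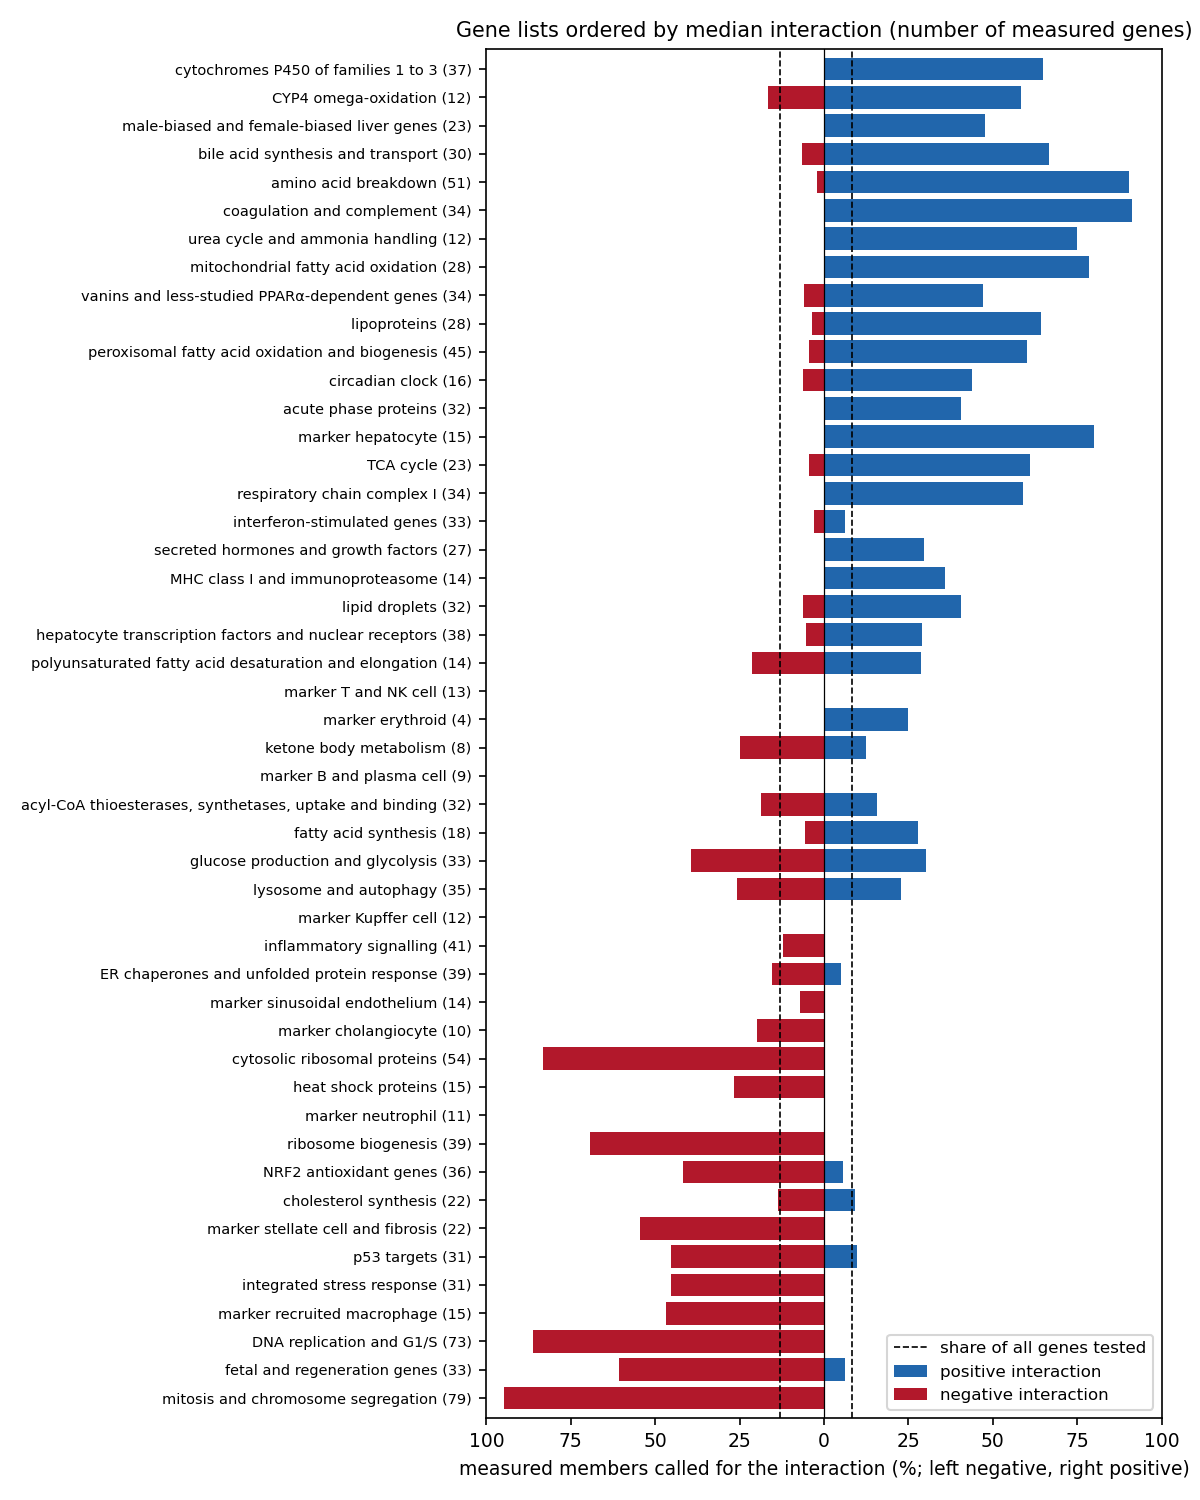
Bars give the percentage of measured members of each gene list called with a positive or a negative interaction on the ketogenic diet, and dashed lines give the share of all genes (8.20% positive, 13.0% negative). Mitosis has the largest negative share (75 of 79), and coagulation and complement (31 of 34) and amino acid breakdown (46 of 51) have the largest positive shares.

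A smaller set of genes set the PPARα-/- livers apart, and the examples were chosen after their values were seen. Maoa, monoamine oxidase A, read 5.59 to 5.96 in WT livers, 8.27 to 8.42 after loss of PPARα, 7.24 to 7.82 after loss of CREB3L3 and 7.09 to 8.12 after loss of both (interaction -2.50, SE 0.29). Glul, glutamine synthetase, read 11.71 to 12.11 in WT, 9.17 to 9.94 without PPARα, 10.00 to 10.60 without CREB3L3 and 10.22 to 11.11 without either. Without PPARα, CREB3L3 ablation raised it by 0.95 (SE 0.17), and the interaction was 2.59 (SE 0.23, adjusted p = 4.2e-09). Iigp1, an interferon-induced GTPase, had the same order, with 7.49 to 8.08 in PPARα-/- livers and 8.65 to 8.97 in PPARα/CREB3L3-/- livers (2.59, SE 0.23). Abcd2, a peroxisomal carrier of very long acyl chains, read 9.18 to 9.51 in WT livers, 4.22 to 4.95 after loss of PPARα, 7.14 to 8.29 after loss of CREB3L3 and 5.40 to 6.52 after loss of both. The 4 groups did not overlap, and the interaction was 3.24 (SE 0.42, adjusted p = 1.5e-06). The additive level of 2.75 lies below the array medians, where a drop may not be measured in full.

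**Figure D4:**
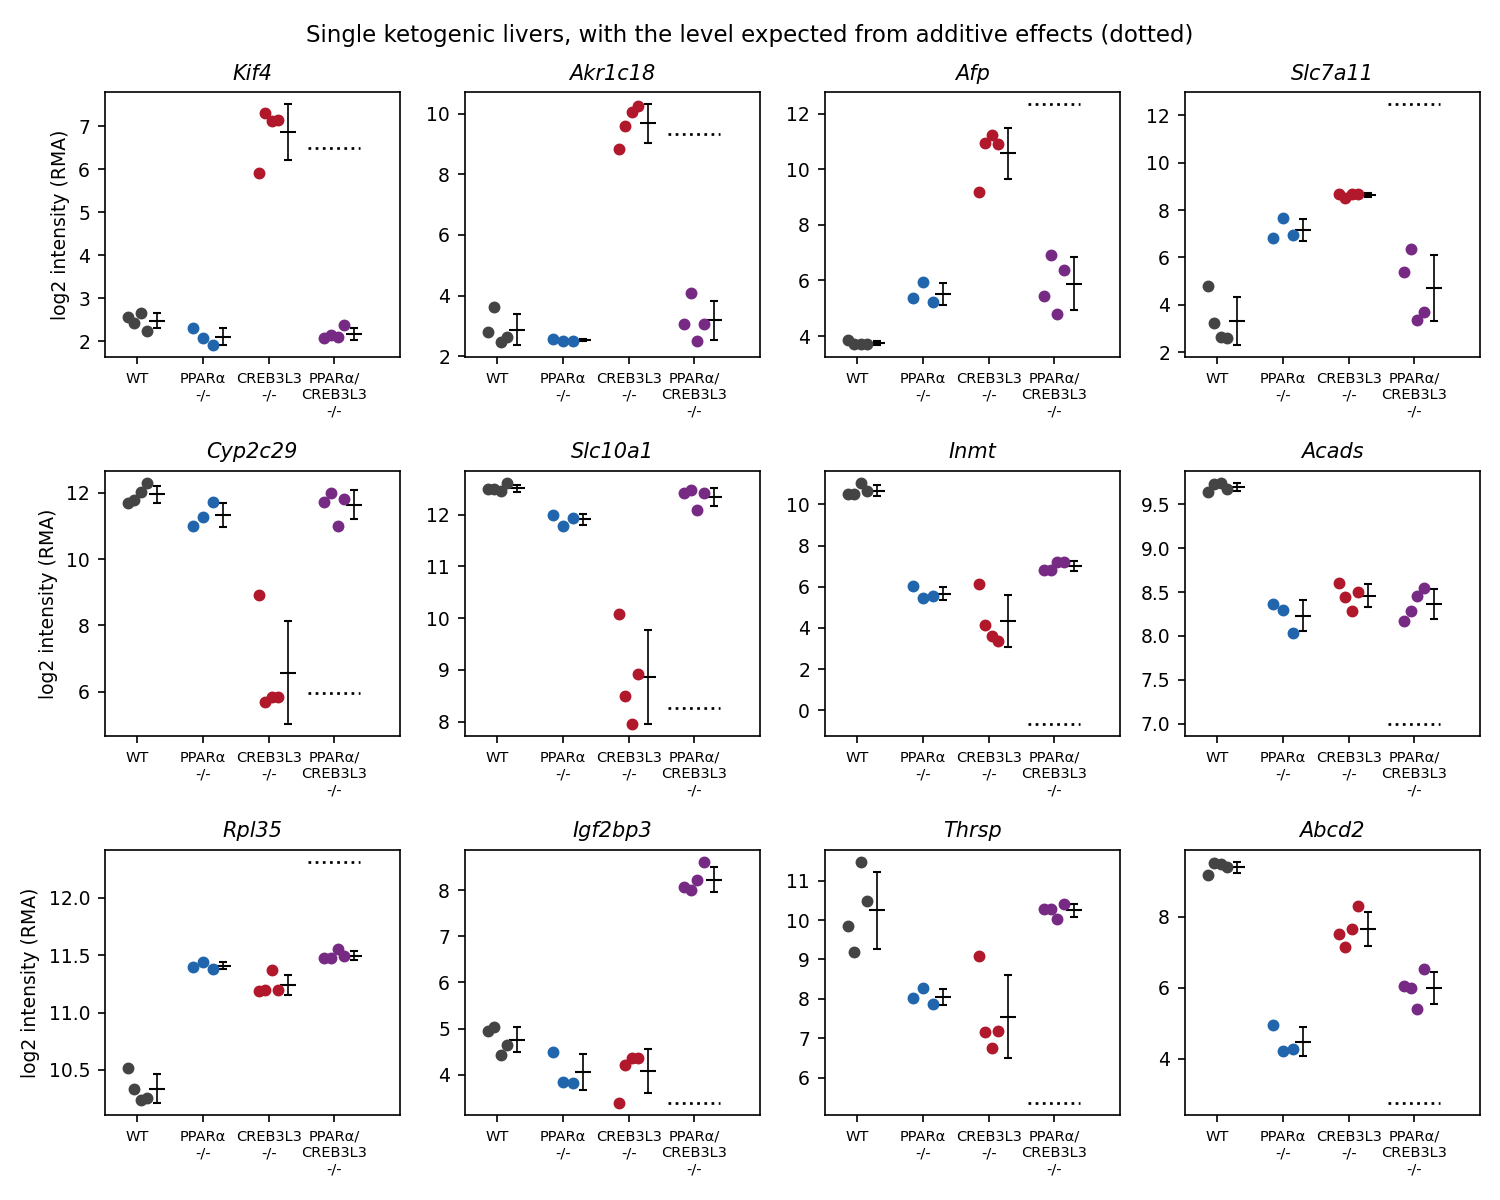
Points are livers and bars the mean ± SD of each genotype on the ketogenic diet, as log2 intensity, for 12 genes, and the dotted line marks the level of the combined knockout if both effects were additive. Kif4 is high only in CREB3L3-/- livers, Igf2bp3 only in PPARα/CREB3L3-/- livers, Acads only in WT livers, and Rpl35 is low only in WT livers.

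The mean levels of hepatocyte, stellate cell and recruited macrophage markers set the CREB3L3-/- livers apart. Single markers did so less evenly. CREB3L3-/- livers lay below all others for 5 of 15 hepatocyte markers, while WT livers lay above all others for 8. They lay above all others for 17 of 22 stellate cell markers and 8 of 15 macrophage markers in the CREB3L3-/- group. Among 15 hepatocyte markers 12 were positive (7 with repeated quantile normalization) and none negative (median 0.68), and the mean log2 level of the list ran from 12.49 to 12.62 in WT, 12.30 to 12.33 without PPARα, 11.14 to 12.06 without CREB3L3 and 12.33 to 12.50 without either. Asgr1, the asialoglycoprotein receptor of hepatocytes, read 10.44 to 10.64 in WT livers, 10.42 to 10.51 after loss of PPARα, 9.74, 8.25, 8.36 and 9.10 after loss of CREB3L3 and 10.54 to 10.62 after loss of both (interaction 1.82, SE 0.26, adjusted p = 4.7e-06). Of 22 stellate cell and fibrosis markers 12 were negative (median -0.95), with mean levels of 7.10 to 7.72 in CREB3L3-/-, 6.09 to 6.28 in WT, 5.72 to 5.91 in PPARα-/- and 5.76 to 6.39 in PPARα/CREB3L3-/- livers. Acta2, the actin of activated stellate cells, read 8.28 to 9.69 in CREB3L3-/- livers and 5.16 to 7.33 in all others (-4.17, SE 0.57). Of 15 markers of recruited macrophages 7 were negative (median -1.63), at mean levels of 6.73 to 7.39 in CREB3L3-/-, 4.99 to 6.21 in WT, 5.25 to 5.58 in PPARα-/- and 5.19 to 5.75 in PPARα/CREB3L3-/- livers. The part of these cells in the departures named above was not tested.

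Markers of other cell types gave few calls. None of 12 Kupffer cell markers was called (median -0.14), and their mean level was 8.53 to 8.64 in CREB3L3-/-, 7.92 to 8.57 in WT, 6.98 to 7.44 in PPARα-/- and 7.05 to 7.63 in PPARα/CREB3L3-/- livers, so it followed PPARα rather than the combination. None of 11 neutrophil markers was called either (median -0.58), but without the 2 arrays that stood apart 2 of them were, and their mean level reached 5.72 in CREB3L3-/- livers (from 3.87), against 3.36 to 4.11 in WT. No marker of T and NK cells (13) or of B and plasma cells (9) was called, and 11 and 7 of these lay below the array medians in every group. Of 10 cholangiocyte markers (median -0.52) 2 were negative (20%), Cldn4 (-2.56, SE 0.30) and Muc1 (-1.21, SE 0.24). Of 14 markers of the sinusoidal endothelium 1 was negative (7.14%), Cdh5 (-0.83, SE 0.16). These shares compare with 13.0% of all genes and rest on few members. Of 4 erythroid markers 1 was positive (Alas2, 2.33, SE 0.30), against 8.20% of all genes.

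Immune and storage pathways varied. Among 33 interferon-stimulated genes 2 were positive (6.06%) and 1 negative (3.03%), below the 8.20% and 13.0% of all genes. PPARα ablation with CREB3L3 nevertheless lowered 26 of them. Of 14 genes of MHC class I and the immunoproteasome 5 were positive and none negative (median 0.48), for example H2-K1 (0.60, SE 0.12), and 3 were positive with the ketogenic arrays alone. Of 41 genes of inflammatory signalling 5 were negative (12.2%, against 13.0% of all genes), and 3 with repeated quantile normalization or with the ketogenic arrays alone. Cd14, a coreceptor for endotoxin, read 4.85 to 5.91 in WT, 5.85 to 5.95 without PPARα, 8.06 to 9.12 without CREB3L3 and 6.62 to 7.64 without either. CREB3L3 ablation raised it in both settings, by 3.25 (SE 0.26) and by 1.05 (SE 0.28), and the interaction was -2.20 (SE 0.38, adjusted p = 6.5e-05). Ccl2, the monocyte attractant (-2.32, SE 0.59), lost its call in 10 settings. In the lysosome 8 of 35 were positive (22.9%) and 9 negative (25.7%), and in lipid droplets 13 of 32 were positive (40.6%) and 2 negative (6.25%). Fatty acid uptake and activation had 5 of 32 positive (15.6%) and 6 negative (18.8%), against 8.20% and 13.0% of all genes. Among the omega-oxidation enzymes 7 of 12 were positive and 2 negative. Of the last, Cyp4a12a (3.23, SE 0.52) and Cyp4a12b (3.31, SE 0.53) are close copies whose probes may be shared.

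Whether the departures differed between the diet and the fast was tested with the fasted livers. The regimens differ in food intake and duration together, so a difference cannot be assigned to the diet alone. The interaction on the diet minus the interaction after the fast was positive for 999 genes (5.31%) and negative for 1345 (7.15%), and 2188 of the 3989 ketogenic interaction genes were among those called with the same sign. For the remaining ones the difference from the fast was not called with that sign. The interaction on the diet is a term of this difference, which favours the same sign among genes called on the diet. After the fast, 92 genes had a positive interaction (0.489%) and 65 a negative one (0.345%). Of these, 61 were also called on the diet, 49 with the same sign, which is 31.2% of the fasted calls and 1.23% of the ketogenic ones. The fasted calls are less certain. In probe sets there were 271, while 60 had an adjusted p under 0.05. Adjusted p values among the called probe sets reached 0.13 after the fast and 0.00624 on the diet. The interactions of both regimens rest on different livers and correlated at 0.05 across genes, which are not independent of each other.

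**Figure D5:**
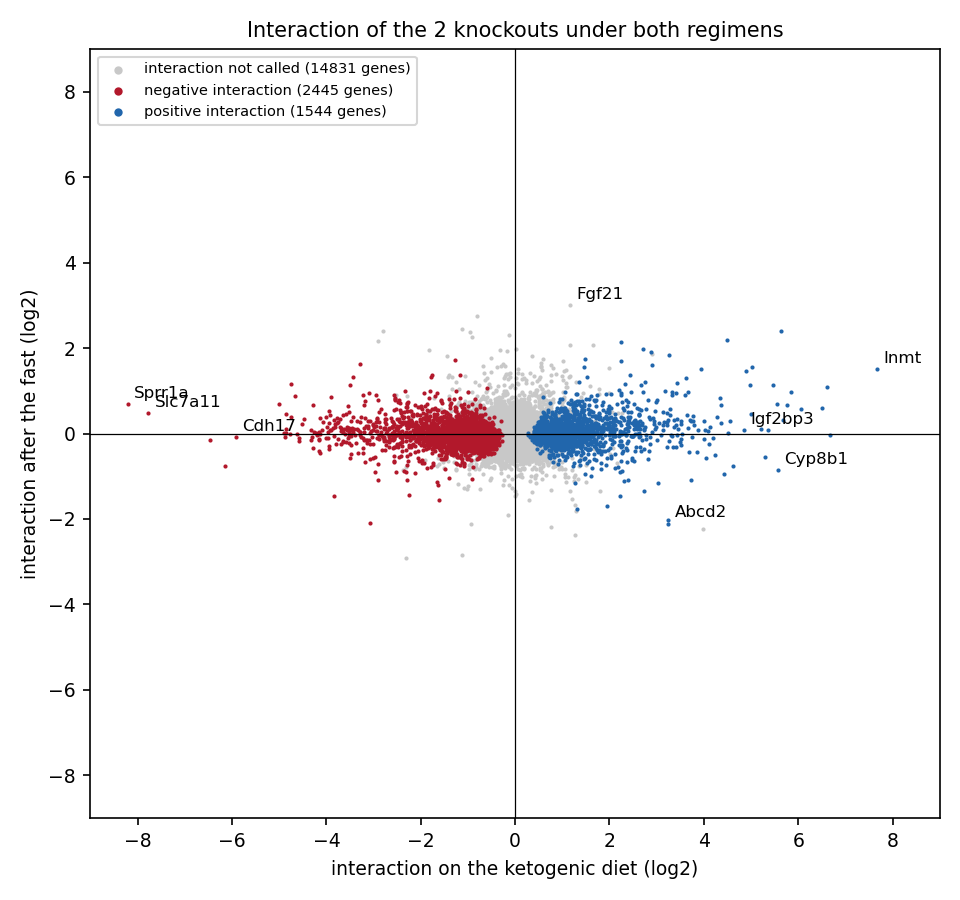
Each point is a gene, with its interaction on the ketogenic diet on the x axis and after the fast on the y axis. Both are log2 differences, and colour marks the genes called for a positive or negative interaction on the diet. The cloud extends along x (SD 0.818) far more than along y (SD 0.295), and Abcd2 lies at 3.24 on the diet and at -2.11 after the fast.

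Of the 79 mitosis genes, 74 had a lower interaction on the diet than after the fast. Kif4 was dim in all 15 fasted livers (2.04 to 2.69), where its interaction was -0.09 (SE 0.28), and the difference between both regimens was -4.22 (SE 0.40). Cdh17 (2.57 to 2.97 in fasted livers), Igf2bp3 (2.82 to 3.81) and Slc7a11 (2.54 to 4.30) were dim after the fast as well. Cyp2c29, in contrast, was high in every fasted liver, at 12.00 to 12.84, whereas CREB3L3-/- livers on the diet were low. Inmt read 9.06 to 10.27 in fasted CREB3L3-/- livers, which overlapped fasted WT livers at 8.79 to 10.31. The fasted mice are other animals than those on the diet. The differences were 5.36 (SE 0.86) for Cyp2c29 and 6.16 (SE 0.94) for Inmt. Acads had an interaction of 0.40 (SE 0.13) after the fast, where CREB3L3-/- livers read 9.05 to 9.21, WT livers 9.22 to 9.52, PPARα-/- livers 7.99 to 8.17 and PPARα/CREB3L3-/- livers 8.07 to 8.43 (difference 0.97, SE 0.19).

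A few genes were compared under both regimens. Fgf21, not called on the diet, read 6.32 to 7.35 in fasted WT livers and 3.52 to 4.46 over the 3 other fasted groups, with an interaction of 3.01 (SE 0.66, adjusted p = 0.0557), but the difference between the regimens was not called (-1.84, SE 0.93). Apoa4 departed alike under both, by 1.53 on the diet and 1.33 (SE 0.29) after the fast. Abcd2 turned its sign: fasted livers read 4.03 to 4.45 in WT mice, 4.66 to 4.93 without PPARα, 5.47 to 6.75 without CREB3L3 and 4.13 to 5.57 without either, for an interaction of -2.11 (SE 0.42, adjusted p = 0.0447) and a difference between the regimens of 5.35 (SE 0.60).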

How the data were processed

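Gene expression was measured in 30 livers, each hybridized to its own Affymetrix mouse whole-transcript array. The authors normalized the arrays by RMA and deposited log2 intensities, 1 per probe set and array, and RMA places all arrays on a common distribution, so that shifts shared by most genes are removed. Per the labels the samples were prepared with the Affymetrix sense target assay, whereas the methods name an Ambion kit, and they name a remapped chip definition although the deposited identifiers are the manufacturer's transcript clusters. No version of the normalization software was given in the sources used here. No columns were unused (0). Arrays have no depth in reads, and their number limits the precision.

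The fit used limma 3.58.1 under R 4.3.3, reading files with version 1.17.8 of data.table, and had 1 mean for each of the 8 groups of both regimens, an intensity trend, 22 residual and 3.47 prior degrees of freedom. The contrast was (PPARα/CREB3L3-/- minus PPARα-/-) minus (CREB3L3-/- minus WT). A call needed P under 0.001 with a fold beyond 1.2, and adjusted p values are Benjamini-Hochberg values from limma over all 35556 probe sets. They measure the spread between these mice. Of the probe sets, 1881 carry several symbols and 12457 none, and 1386 of the 18820 genes have several probe sets and are given by the one with the highest mean. Dimmer probe sets of Phgdh (-0.40), Prc1 (-0.30), Hspb1 (-0.02) and Nr1d2 (0.44) were not called for the interaction. Other dimmer ones of Phgdh (-3.09) and Hspb1 (-2.73) were. The replicate numbers of the labels did not pair the arrays. The fit was tested on simulated data. The alternatives were other samples in the fit, array weights, variance models, scalings, filters, thresholds and each array left out.

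Genes named were the 12 with the largest positive and the 12 with the largest negative interaction among those called in all 15 fits that leave out an array, up to 4 members of each of 48 gene lists by lowest P, Ppara, Creb3l3 and the genes the study names, and the 6 largest differences between the regimens in each direction. Genes outside that rule are named as uncalled or paired members, or are said to be chosen after their values were seen. The members of the lists were chosen with earlier results of these data known. Of the list entries 1341 matched a gene on the array, 23 of them by an older symbol, and 178 did not. Promoters are from RefSeq. Plots were made in matplotlib 3.10.9 under Python 3.11.15.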

Additional observations from a re-analysis of the deposited data

Results flagged for a closer look

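Over the 55 genes shown, 165 groups of 4 livers were examined for an array far from the rest of its group, and 15 had one, where chance alone gives about 1 in 20. In CREB3L3-/- replicate 1, Kif4 read 5.90, Afp 9.20, Igf2bp3 3.38, Cyp2c29 8.91, Oxct1 6.37 and Igfbp2 9.50. For all of these but Igf2bp3 the array lay on the side of the other genotypes. Other arrays far from their group read 8.49 for Slc7a11 in CREB3L3-/- replicate 2 and 11.37 for Rpl35 in CREB3L3-/- replicate 3. In WT livers they were 3.86 for Afp in replicate 1, 11.11 for Vnn1 in replicate 2 and 10.54 for Fabp2 in replicate 4. In PPARα/CREB3L3-/- livers they were 8.27 for Sprr1a in replicate 2, 7.64 for Cd14 and 9.67 for Otc in replicate 3, and 11.11 for Glul in replicate 4.

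The interaction differed between the diet and the fast, by a test of that difference, for 3079 probe sets and for 45 of the 55 genes shown. Over all genes the difference was called positive for 5.31% and negative for 7.15%. Many of the genes shown were chosen by their interaction on the diet, which is a term of this difference. That choice favours a high count among them. Among cell cycle genes the difference (diet minus fast, log2) was -4.22 for Kif4, -4.75 for Prc1, -4.90 for Hmmr, -3.99 for Ttk, -3.27 for Depdc1a, -3.15 for Rrm2 and -4.19 for Fancd2. Among other genes lower on the diet it was -8.90 for Sprr1a, -8.25 for Slc7a11, -6.32 for Afp, -5.82 for Cdh17, -5.70 for Anxa2, -5.39 for Akr1c18, -4.50 for Lgals3, -3.77 for Acta2, -3.58 for Fbp2, -3.44 for Phgdh, -2.68 for Maoa, -2.46 for Cd14, -2.38 for Oxct1 and -0.52 for Rpl35. Among hepatocyte enzymes, carriers and plasma proteins it was 6.71 for Rgs16, 6.42 for Cyp8b1, 6.16 for Inmt, 5.89 for Sult2a8, 5.51 for Serpina6, 5.36 for Cyp2c29, 4.13 for Agxt, 4.03 for Slc10a1, 3.93 for Gnmt, 3.05 for Otc, 2.48 for Glul, 1.75 for Fah, 1.69 for Asgr1 and 1.46 for Fgg. For lipid and energy genes and the remaining ones it was 5.36 for Elovl3, 5.35 for Abcd2, 4.77 for Igf2bp3, 4.62 for Igfbp2, 3.42 for Thrsp, 2.24 for Elovl2, 2.06 for Ppara, 1.99 for Iigp1, 1.18 for Suclg1 and 0.97 for Acads.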

How the results depend on the processing

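Counts here are of probe sets. The interaction was called for 5669, for 4486 with the 15 ketogenic arrays alone in the fit and for 4958 to 5945 with 1 array left out. No gene called for the interaction, of the 256 followed, changed sign in a setting where it was fitted, and 32 of the 256 had no value with probe sets above the median only. Among uncalled ones the sign of Cidec, Fabp1, Fabp2 and Mfsd2a turned, for example from 0.10 to -0.57 for Fabp1 without PPARα-/- replicate 3. The threshold moved counts most. An adjusted p under 0.05 with the fold criterion gave 8532 for the interaction and 5039 for its difference between the regimens (3079 in the main fit), and without the criterion 8606 and 5044. Without the criterion, PPARα ablation without CREB3L3 gave 11183 in place of 7242. A fold beyond 2 gave 2975 for the interaction, 2794 for CREB3L3 ablation with PPARα (7604), 163 for it without PPARα (859), 1137 for PPARα ablation with CREB3L3 (3883) and 2670 without it. The effect of CREB3L3 ablation without PPARα was the least stable. It gave 446 with the ketogenic arrays alone, 389 without PPARα-/- replicate 2 and 527 without PPARα/CREB3L3-/- replicate 3, and its range with 1 array left out was 389 to 1058. Under median centring its higher share went from 34.1% to 21.8%. The other ranges were 6757 to 7836 for CREB3L3 ablation with PPARα, 2965 to 4076 and 6356 to 7238 for PPARα ablation with and without CREB3L3, and 2701 to 3525 for the difference between the regimens. The cause was not tested.

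The numbers in the labels did not pair the arrays: among 21 pairs with the same number, deviations correlated at -0.08 to 0.11, 1 of them over 0.1. With the replicate block the counts were 5560, 7615, 838, 3664, 7196 and 3043 in the order interaction, CREB3L3 ablation with and without PPARα, PPARα ablation with and without CREB3L3, and difference between the regimens. Median centring shifted every gene's interaction by 0.01.

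Among gene lists, called members of cholesterol synthesis went from 5 to 8 with repeated quantile normalization and to 2 with the ketogenic arrays alone, hepatocyte markers from 12 to 7 with repeated quantile normalization, and sex-biased genes from 11 to 7 with the ketogenic arrays alone. Calls were lost in several settings by G6pc (12), Irf1 (13), Isg20 (15) and Nlrc5 (8). Dim genes bound what could be seen, since no background level was used here to say whether a probe set was detected.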
